A study of Mus musculus with 24 samples.

Results

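The genes of MHC class II antigen presentation were followed by RNA sequencing through 6 conditions of mouse bone marrow–derived macrophages (BMDM). Of the 56884 genes in the count table, 9 were taken by name, for their part in this pathway. They were *H2-Aa*, *H2-Ab1*, *H2-Eb1*, *Cd74*, *Ciita*, *H2-DMa*, *H2-DMb1*, *Ctss* and *Ifi30*. All 9 passed the filter on low counts, which left 13679 genes in the test.

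The macrophages were grown with the growth factor M-CSF from the marrow of 4 wild-type C57BL/6J mice, 9-week-old females numbered 1, 2, 4 and 5. Each mouse gave 1 library in each of the 6 groups, 24 libraries in all. Naive macrophages received nothing for 24 hours. IL-4/IL-13–treated macrophages received 20 ng/ml of each cytokine for 24 hours. The other 4 groups received the same cytokines together with an inhibitor, after 1 hour of pretreatment with it. Tunicamycin, which blocks N-linked glycosylation in the endoplasmic reticulum, was used at 5 µg/ml, and Sal003, which inhibits the dephosphorylation of eIF2α, at 10 µM. In a pair of groups oligomycin, which blocks the mitochondrial ATP synthase, was used at 1 µM, and in 1 of the pair ISRIB, which counteracts the integrated stress response, was added at 1 µM. Titles and library names contradict each other here. Oligomycin set A had ISRIB by its titles and lacked it by its library names, and for oligomycin set B the reverse holds. Both readings are kept, and no expression value was used to choose one.

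MHC class II molecules present peptides from endosomes to CD4+ T cells, and macrophages carry them at levels that cytokines regulate. An α and a β chain are assembled in the endoplasmic reticulum around the invariant chain, which fills the peptide groove and directs the complex to endosomes. There cathepsin S trims the invariant chain to a short remnant, and H2-DM exchanges this remnant for a peptide. Transcription of the genes of the chains, the invariant chain and H2-DM depends on CIITA, a coactivator that binds no DNA itself. CIITA is recruited to class II promoters by the RFX complex, CREB and NF-Y.

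In the GRCm39 assembly, *H2-Aa* (ENSMUSG00000036594), *H2-Ab1* (ENSMUSG00000073421), *H2-Eb1* (ENSMUSG00000060586), *H2-DMa* (ENSMUSG00000037649) and *H2-DMb1* (ENSMUSG00000079547) all lie in the MHC on chromosome 17. *H2-DMa* occupies chr17:34338515-34358958, *H2-DMb1* chr17:34372046-34379204, *H2-Ab1* chr17:34476663-34488393, *H2-Aa* chr17:34493404-34506798 and *H2-Eb1* chr17:34504236-34535648. *H2-Aa* is on the minus strand and the other 4 on the plus strand, and the ends of *H2-Aa* and *H2-Eb1* overlap. The other 4 members are *Ciita* (ENSMUSG00000022504, chr16:10297923-10347694) on chromosome 16, *Cd74* (ENSMUSG00000024610) on chromosome 18, *Ctss* (ENSMUSG00000038642, chr3:95433963-95463717) on chromosome 3 and *Ifi30* (ENSMUSG00000031838, chr8:71215403-71219334) on chromosome 8. The strand setting of the counting was not given in the sources used here, so overlaps limit some of these counts. Of the exon length of *Ifi30*, 35% is overlapped by genes on the opposite strand, against 17% for *H2-DMb1*, 11.8% for *H2-DMa* and at most 9.6% for each of the other members. *H2-DMb1* also shares 14.2% of its exon sequence with its neighbour *H2-DMb2*.

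Libraries held between 16238727 and 26725278 gene counts. Levels are given as CPM, gene counts relative to the TMM-scaled library size, with the SD over 4 mice. The macrophage marker *Csf1r*, the M-CSF receptor, ranged from group means of 821 CPM with tunicamycin to 4579 CPM in naive cells. It does not stand for its whole list. The sum of 7 macrophage markers was 16100 to 17600 CPM with tunicamycin, against 11400 to 13800 with IL-4/IL-13. That sum was at least 8720 CPM in every library. Markers of other cells that make class II molecules were low. The sum of 6 dendritic cell markers was at most 11.3 CPM and that of 5 B cell markers at most 3.23 CPM in any library. One library stood apart in the naive group: mouse 2 had the highest naive level of 7 of the 9 genes. It was also apart over all genes with enough counts. Its chi-square per gene, a measure of how far a pair of libraries differs, was 27.3 to 35.9 against the other naive libraries. Among those it was 6.05 to 7.98. Where leaving out mouse 2 ended a call, and for some but not all of the called values that this moved, the value without mouse 2 is also given.

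The 9 genes together held 0.971% ± 0.0995 of the gene counts in naive cells and 1.67% ± 0.0575 with IL-4/IL-13. With tunicamycin their share was 0.262% ± 0.0178, the lowest of the 6 groups. It was 1.3% ± 0.0209 with Sal003, 0.918% ± 0.0295 in oligomycin set A and 1.2% ± 0.0393 in set B. Counts of *Ctss*, the highest of the 9 genes in each group, weigh most in this share. *Ctss* went from a mean of 5538 CPM in naive cells to 9902 with Sal003 and 9569 in set B. The class II chains were below their naive level in both of these groups. Levels of different genes can be set side by side only per length. They are given as TPM, computed here from counts and the merged length of all annotated exons of a gene. This length can exceed that of the transcripts present. By TPM in naive cells the most abundant members were *Ctss* at 5046 ± 321 and *Cd74* at 3670 ± 620, and the least abundant was *Ciita* at 43.7 ± 6.38. With IL-4/IL-13 this order at the top was exchanged, with *Cd74* at 8749 ± 316 TPM and *Ctss* at 6461 ± 519 TPM. The exchange depends on the merged exon lengths, 5305 bases for *Ctss* and 2515 for *Cd74*. By CPM *Ctss* was above *Cd74* in both groups, at 5538 against 1920 in naive cells and 7500 against 4812 with IL-4/IL-13.

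**Figure D1:**
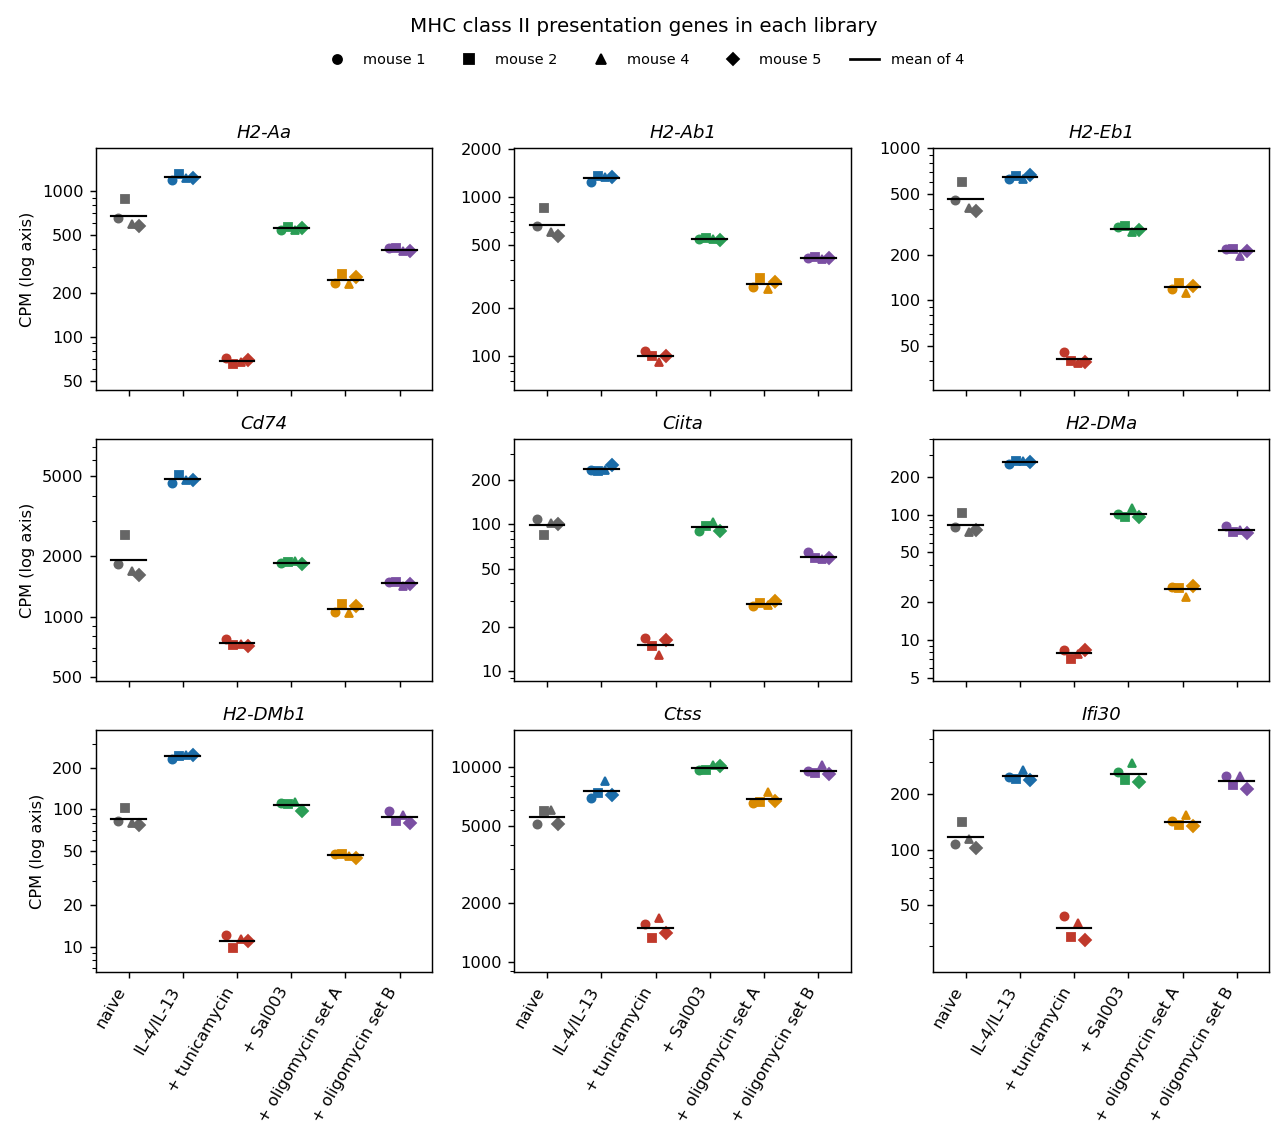
CPM of each of the 9 genes on a log axis in the 6 groups, with 1 marker per mouse and a line at the mean of 4. Each gene was lowest with tunicamycin, and the class II chains, *Cd74*, *Ciita* and the H2-DM genes were highest with IL-4/IL-13, whereas *Ctss* was highest with Sal003 (mean 9902 CPM).

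The first comparison asked what the cytokines alone did. All 9 genes rose with IL-4/IL-13 against naive cells at an adjusted p-value under 0.05 (edgeR quasi-likelihood test, adjusted over all genes), the direction in which 30.1% of all genes tested were called. At least 2.5-fold rises were called for 3 of the 9, *H2-DMa*, *H2-DMb1* and *Cd74*, against 5.39% of all genes. In bulk RNA, more cells with a transcript and more transcript per cell cannot be told apart.

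Adding tunicamycin to the cytokines lowered all 9 genes, and all 9 by at least 2.5-fold. Over all genes, 37.7% were called lower and 14% lower by at least 2.5-fold. The median log2 fold change of the members was -3.96, against 0.01 for all genes. Adding Sal003 lowered 7 of the 9 and raised *Ctss*, where 24.6% of all genes were called lower and 25.9% higher. Of the 7, *Cd74* and *H2-DMa* fell by at least 2.5-fold, a call made for 5.04% of all genes, and *Ciita*, at 2.49-fold, passed that mark when mouse 2 or mouse 4 was left out.

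In oligomycin set A, 8 of the 9 genes fell against IL-4/IL-13 alone, 7 of them by at least 2.5-fold. The background was 32.2% of all genes called lower and 7.96% lower by at least 2.5-fold. In oligomycin set B, 7 of the 9 fell, all 7 by at least 2.5-fold, and *Ctss* rose. Here 26.4% of all genes were called lower, 5.02% lower by at least 2.5-fold and 27.9% higher. These 4 inhibitor comparisons share the same IL-4/IL-13 libraries, so their directions are not independent of each other. The 7 genes that fell in each of them were the class II chains, *Cd74*, *Ciita* and the H2-DM pair.

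**Figure D2:**
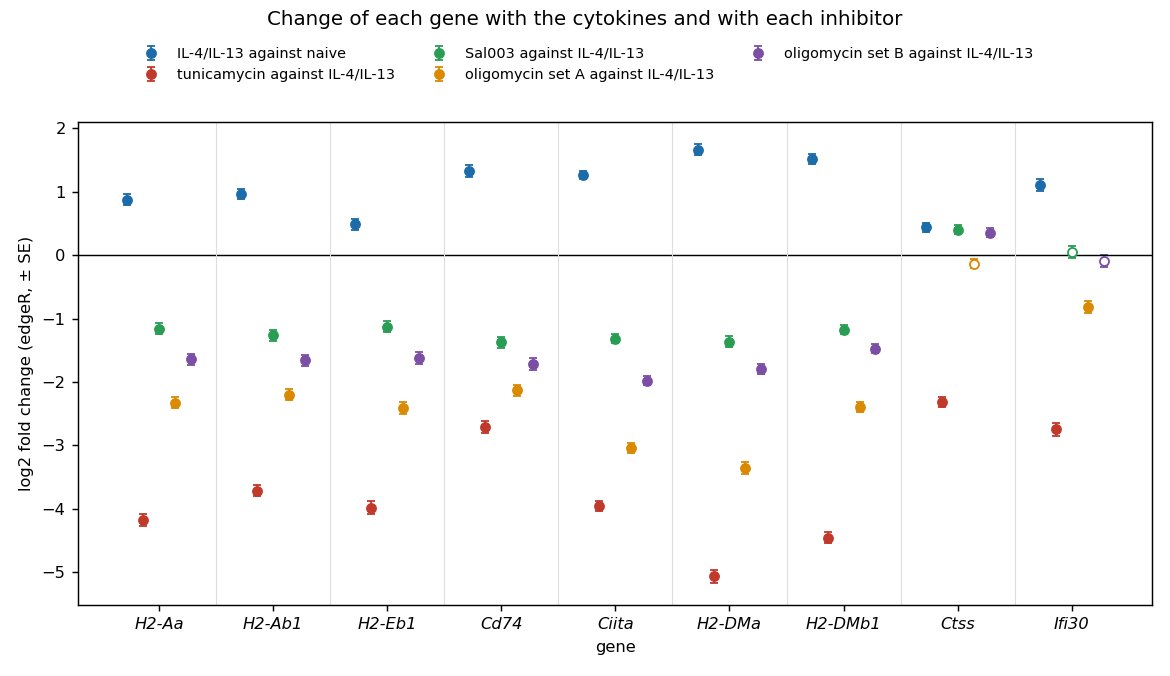
The log2 fold change ± SE (edgeR) of each gene for IL-4/IL-13 against naive cells and for each inhibitor group against IL-4/IL-13, with filled points where the adjusted p-value was under 0.05. The 7 genes from *H2-Aa* to *H2-DMb1* fell in all 4 inhibitor groups, whereas *Ctss* passed as lower only with tunicamycin, and *Ifi30* only with tunicamycin and in oligomycin set A.

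Marker genes of other cells moved with some of these groups. As background, tunicamycin had 37.7% of all genes called lower than IL-4/IL-13 alone. That share was 32.2% for set A, 26.4% for set B and 24.6% for Sal003. Called higher were 38.7% of all genes with tunicamycin, 34% in set A, 27.9% in set B and 25.9% with Sal003. Of 6 dendritic cell markers 4 could be tested, and all 4 fell in each inhibitor comparison. The sum over all 6 was 8.97 to 10.6 CPM with IL-4/IL-13, 1.59 to 2.34 with tunicamycin, 2.8 to 3.81 with Sal003, 2.02 to 3.3 for set A and 2.54 to 4.72 for set B. *Xcr1* was at 0 in naive, IL-4/IL-13 and Sal003 libraries, and *Cd209a* was at 0 in tunicamycin, Sal003 and set B libraries. The sum of 5 neutrophil markers was 38.3 to 73.9 CPM in naive cells, with mouse 2 the highest, and 22.3 to 40.6 with IL-4/IL-13. It was at most 0.285 CPM with tunicamycin and at most 24.5 in the other inhibitor groups, and 4 or 5 of these 5 markers fell in each inhibitor comparison. The B cell sum was 1.05 to 2.17 CPM with IL-4/IL-13, 2.36 to 3.23 with tunicamycin, and at most 0.986 in the other inhibitor groups. The sum of 5 T cell markers was at most 2.2 CPM, and at least 2 of *Cd3d*, *Cd3e* and *Cd3g* were at 0 in every group but the naive one. Of the 7 macrophage markers 6 fell with IL-4/IL-13, where the class II genes rose and 30.4% of all genes fell. Their sum went from 30600 to 36300 CPM in naive cells to 11400 to 13800. Against IL-4/IL-13 alone, 3 of the 7 rose and 3 fell with tunicamycin (sum 16100 to 17600 CPM). In set A 2 rose and 4 fell (8720 to 9530 CPM). With Sal003 (13800 to 15500 CPM) and in set B (13400 to 15300 CPM), 3 rose and 1 fell. The part of these shifts in the results was not tested.

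The class II chains came first. *H2-Aa* encodes the α chain of the I-A molecule, and *H2-Ab1* its β chain. In mice 1, 2, 4 and 5, *H2-Aa* was at 652, 883, 595 and 572 CPM in naive cells and at 1189, 1304, 1226 and 1223 CPM with IL-4/IL-13. These groups did not overlap, although naive mouse 2 lay nearer to the treated cells than the other naive libraries did. The rise was 1.83-fold (log2 fold change 0.87 ± 0.09 SE, adjusted p = 2.8e-09, edgeR). Without mouse 2 it was larger, at 1.01 on the log2 scale.

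With tunicamycin, *H2-Aa* was at 71.2, 64.6, 67.1 and 69.5 CPM in the same mice. It stood at 541, 568, 542 and 556 CPM with Sal003. It was at 233, 267, 230 and 255 CPM in oligomycin set A and at 405, 403, 385 and 389 CPM in set B. All 4 inhibitor groups thus lay below every IL-4/IL-13 library and every naive library, and no pair of them overlapped. Against IL-4/IL-13 alone, *H2-Aa* was 18.1-fold lower with tunicamycin, 2.24-fold lower with Sal003, 5.02-fold lower in set A and 3.12-fold lower in set B. The adjusted p-values of these 4 falls (edgeR) were at most 3.5e-11.

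*H2-Ab1* followed the same order of groups. Its mean was 669 ± 126 CPM in naive cells, 1308 ± 51.4 with IL-4/IL-13 and 99.7 ± 6.15 with tunicamycin. It was 543 ± 5.99 CPM with Sal003, 284 ± 19.2 in oligomycin set A and 414 ± 4.21 in set B. None of the groups that neighbour each other in this order overlapped. The rise with the cytokines was 1.95-fold and the fall with tunicamycin 13.1-fold.

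*H2-Eb1* encodes the β chain of the I-E molecule, whose α chain gene *H2-Ea* is not expressed in mice of the C57BL/6 haplotype. In every library *H2-Ea* was at or below 0.0504 CPM. *H2-Eb1* rose only 1.4-fold with the cytokines (log2 fold change 0.49 ± 0.09, adjusted p = 3.5e-05, edgeR), from 457, 597, 408 and 385 CPM to 632, 659, 631 and 667 CPM. The nearest libraries of the 2 groups, 597 CPM in naive mouse 2 and 631 CPM in treated mouse 4, lay close together. Without mouse 2 the rise was 0.64 on the log2 scale. Tunicamycin lowered it 15.8-fold, to between 38.5 and 45.8 CPM.

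The ratio of the chains within a library was also followed across the groups, as a description with no test. On the log2 scale, *H2-Eb1* over *H2-Ab1* (in CPM) was -0.54 ± 0.03 in naive cells and between -1.29 and -0.88 on average in the other 5 groups. The ratio in every naive library, -0.56 to -0.51, was above that of every other library, the highest of which was -0.84. The ratio of *H2-Aa* to *H2-Ab1*, the partner chains of I-A, was 0.01 ± 0.03 in naive cells and -0.55 ± 0.07 with tunicamycin.

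Upstream of the chains stands *Ciita*. In mice 1, 2, 4 and 5 it was at 108, 85.1, 103 and 101 CPM in naive cells and at 233, 230, 236 and 253 CPM with IL-4/IL-13. The cytokines raised it 2.4-fold (log2 fold change 1.26 ± 0.07, adjusted p = 2.7e-14, edgeR), without overlap. Naive mouse 2, the highest naive library for all 3 chains, was the lowest for *Ciita*.

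*Ciita* fell to 16.8, 14.9, 12.9 and 16.3 CPM with tunicamycin, 15.6-fold below IL-4/IL-13 alone (adjusted p = 2.5e-23, edgeR). It stood at 90.8, 97.9, 104 and 89.7 CPM with Sal003, a 2.49-fold fall, and these libraries overlapped the naive ones. It was at 27.9, 29.2, 28.4 and 30.1 CPM in oligomycin set A, 8.24-fold lower, and at 65.2, 59.1, 57.9 and 59.1 CPM in set B, 3.95-fold lower. The order of the groups for *Ciita* was that for the chains, from IL-4/IL-13 at the top through naive, Sal003, set B and set A to tunicamycin, with only naive and Sal003 overlapping.

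Over the 24 libraries, the log2 CPM of *Ciita* had a Pearson correlation of 0.967 with *H2-Aa*, 0.974 with *H2-Ab1* and 0.967 with *H2-Eb1*. It was 0.978 with *H2-DMa*, 0.952 with *H2-DMb1* and 0.955 with *Cd74*. It was lower with *Ifi30* at 0.757 and with *Ctss* at 0.667, which correlated with each other at 0.969. The libraries fall into 6 groups and share mice, so these values mostly restate the group means and carry no test.

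**Figure D3:**
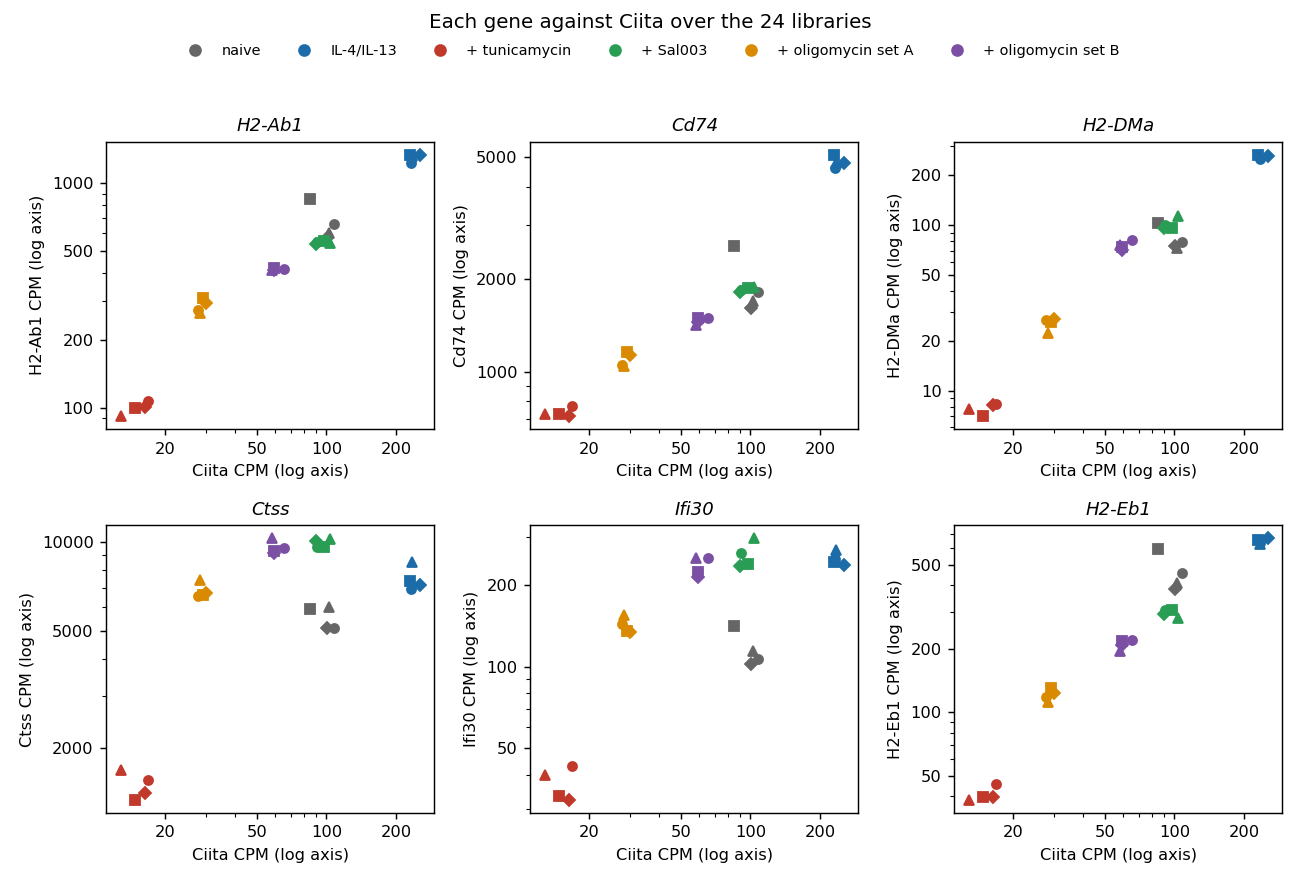
CPM of 6 of the genes against CPM of *Ciita*, both on log axes, for 24 libraries coloured by group, with circles, squares, triangles and diamonds for mice 1, 2, 4 and 5. The 3 upper panels and *H2-Eb1* rise with *Ciita* over the groups, with naive mouse 2 above the other naive libraries. The means of *Ctss* and *Ifi30* have the order of *Ciita* within the 4 inhibitor groups, where Sal003 and set B overlap. Naive and IL-4/IL-13 libraries depart from that order (r = 0.667 and 0.757 over all libraries).

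The promoters of the class II genes carry short boxes to which the RFX complex (X1) and NF-Y (Y) bind, and 3 of them are printed here, those with a match to these boxes within the last 100 bases before the start. RefSeq gives a promoter window, from 250 bases before to 50 bases after the start, for 6 of the 9 members, with 7 entries in all. *H2-Ab1*, *Cd74* and *Ciita* have no entry. Shown are the 250 bases before the start in the GRCm38.p6 build, 5′ to 3′ on the strand of the gene. Capitals mark matches on either strand to the X1 core, which is GNAAC, any 3 bases and then TG, and to the Y core GATTGG.
H2-Eb1, chr17:34305617-34305866 (+ strand): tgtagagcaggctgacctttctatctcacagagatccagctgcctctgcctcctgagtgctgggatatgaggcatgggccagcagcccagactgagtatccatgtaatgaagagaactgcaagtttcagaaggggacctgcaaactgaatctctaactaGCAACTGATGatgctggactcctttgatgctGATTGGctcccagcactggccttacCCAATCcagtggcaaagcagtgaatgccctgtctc
H2-DMb1, chr17:34152941-34153190 (+ strand): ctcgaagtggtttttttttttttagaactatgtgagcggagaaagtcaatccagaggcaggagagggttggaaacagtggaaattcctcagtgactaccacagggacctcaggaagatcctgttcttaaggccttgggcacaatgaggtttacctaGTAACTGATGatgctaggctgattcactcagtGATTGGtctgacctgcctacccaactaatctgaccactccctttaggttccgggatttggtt
H2-Aa, chr17:34287824-34288073 (- strand): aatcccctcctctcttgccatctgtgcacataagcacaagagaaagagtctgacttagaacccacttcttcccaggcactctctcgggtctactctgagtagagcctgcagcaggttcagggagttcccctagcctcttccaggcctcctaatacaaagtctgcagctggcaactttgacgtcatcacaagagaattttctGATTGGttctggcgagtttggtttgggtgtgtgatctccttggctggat

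In *H2-Eb1* the X1 match began 91 bases before the start and the Y match 60 bases before it, with 21 bases between them, and a further Y match on the other strand began 35 bases before the start. In *H2-DMb1* the X1 match began 94 and the Y match 62 bases before the start, with 22 bases between them. *H2-Aa* had a Y match beginning 49 bases before the start and no match to these X1 letters. Of all 32851 promoter windows, 11.6% held the X1 letters, 16.1% the Y letters and 1.93% both. Of the 7 member entries, 2 held both. One of the 2 *H2-DMa* entries held a Y match, whereas *Ctss* and *Ifi30* held neither motif. No member entry held TTC and GAA spaced by 4 bases (STAT6-type, in 6.95% of all windows), or TGATGCAA (C/EBP-ATF-type, 0.895%). A match is only a stretch of letters, and no binding was measured.

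*Cd74* encodes the invariant chain. It was at 1818, 2558, 1695 and 1609 CPM in naive cells of mice 1, 2, 4 and 5 and at 4609, 5080, 4782 and 4777 CPM with IL-4/IL-13. The treated libraries were all far above the naive ones. The rise was 2.51-fold (log2 fold change 1.33 ± 0.09, adjusted p = 2.4e-12, edgeR), at the edge of the 2.5-fold mark. It was 1.48 on the log2 scale without mouse 2, and 1.27 without mouse 4 or mouse 5, which is under that mark.

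Tunicamycin lowered *Cd74* less than the chains, 6.53-fold, to 776, 726, 729 and 718 CPM. Its log2 ratio to *H2-Ab1* was 1.51 ± 0.05 in naive cells, 1.88 ± 0.04 with IL-4/IL-13 and 2.89 ± 0.07 with tunicamycin. The tunicamycin libraries, from 2.84 to 2.99, did not overlap those of any other group, whose highest value was 1.98. In the other inhibitor groups *Cd74* fell 2.59-fold with Sal003, 4.39-fold in oligomycin set A and 3.29-fold in set B.

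**Figure D4:**
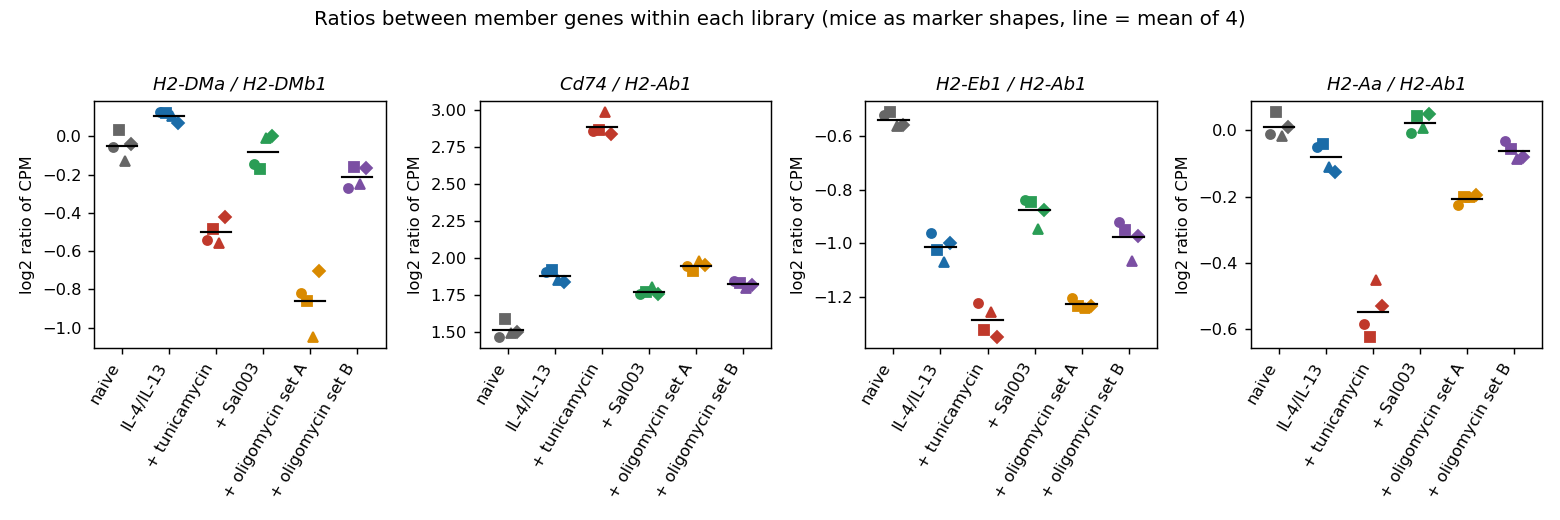
Log2 ratios of CPM between pairs of the genes within each library, with 1 marker per mouse and a line at the mean of 4 in each group. *H2-DMa* over *H2-DMb1* is lowest in oligomycin set A (mean -0.86) and *Cd74* over *H2-Ab1* highest with tunicamycin (mean 2.89).

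The subunits of the peptide exchange factor H2-DM had the largest changes of the members with the cytokines and with tunicamycin. *H2-DMa*, the α chain, was at 79.2, 104, 73.4 and 75 CPM in naive cells and at 253, 267, 267 and 262 CPM with IL-4/IL-13. It rose 3.17-fold (log2 fold change 1.66 ± 0.08, adjusted p = 5e-15, edgeR). *H2-DMb1*, a β chain, rose 2.86-fold, from 85.3 ± 11 to 244 ± 8.53 CPM. Neither gene's naive libraries came near the treated ones.

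With tunicamycin *H2-DMa* was at 8.31, 7.04, 7.71 and 8.25 CPM, 33.5-fold below IL-4/IL-13 alone, and *H2-DMb1* at 11.1 ± 0.94 CPM, 22-fold below. *H2-DMa* was at 101, 96.7, 113 and 96.8 CPM with Sal003. It was at 26.7, 26.2, 22.2 and 27.2 CPM in oligomycin set A and at 81.2, 73.5, 76.2 and 71.3 CPM for set B. The 4 set A libraries were clearly apart from set B, and those of set B overlapped the naive range. *H2-DMb1* was at 108 ± 7.48 CPM with Sal003, 46.2 ± 1.47 for set A and 87.5 ± 8.19 for set B.

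In set A the pair separated. The fall against IL-4/IL-13 was 10.2-fold for *H2-DMa* (log2 fold change -3.36 ± 0.09) and 5.27-fold for *H2-DMb1* (-2.40 ± 0.08), with adjusted p-values of 3.8e-20 and 1.1e-18 (edgeR). The log2 ratio of *H2-DMa* to *H2-DMb1* was 0.11 ± 0.03 with IL-4/IL-13, -0.86 ± 0.14 in set A and -0.50 ± 0.06 with tunicamycin. It was -0.08 ± 0.09 with Sal003 and -0.21 ± 0.06 in set B. Every set A library, from -1.05 to -0.71, was below every library of the other groups. Reads that *H2-DMb1* shares with *H2-DMb2* or with the antisense gene *Gm64535* may enter this ratio, which was not tested.

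The endosomal enzymes behaved otherwise. *Ctss* encodes cathepsin S, which also degrades other endosomal proteins. It was at 5102, 5917, 6028 and 5106 CPM in naive cells, at 6950, 7374, 8518 and 7160 CPM with IL-4/IL-13 and at 9644, 9641, 10224 and 10101 CPM with Sal003. Each of these steps was without overlap, and Sal003 raised *Ctss* a further 1.32-fold above the cytokines alone (log2 fold change 0.40 ± 0.07, adjusted p = 6.4e-05, edgeR).

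*Ctss* was at 9519, 9287, 10273 and 9198 CPM in oligomycin set B, also above IL-4/IL-13 alone, by 1.28-fold (adjusted p = 0.00026, edgeR). In set A it was at 6537, 6616, 7427 and 6725 CPM, with a log2 difference from IL-4/IL-13 of -0.14 ± 0.07 that did not pass in edgeR's quasi-likelihood test (adjusted p = 0.11). All 4 mice had less *Ctss* in set A than with the cytokines alone, and with the mouse as a replicate block the difference passed, at -0.13 on the log2 scale with an adjusted p-value of 0.03 (edgeR). Tunicamycin lowered *Ctss* 5-fold, to 1561, 1337, 1691 and 1414 CPM, the smallest of the 9 falls with tunicamycin.

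*Ifi30* encodes GILT, a thiol reductase that opens disulfide bonds of antigens in endosomes. It rose 2.15-fold with the cytokines, from 107, 142, 114 and 103 CPM to 249, 243, 270 and 238 CPM (adjusted p = 3e-10, edgeR). It was at 263, 240, 297 and 234 CPM with Sal003 and at 252, 224, 251 and 214 CPM in oligomycin set B. Both groups overlapped IL-4/IL-13, with log2 differences of 0.05 ± 0.09 (adjusted p = 0.69) and -0.09 ± 0.09 (adjusted p = 0.46, edgeR). In set A it fell 1.76-fold, to between 134 and 155 CPM, and with tunicamycin 6.7-fold, to between 32.4 and 43.3 CPM.

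The inhibitor groups were then set against naive cells, which asked whether the genes fell below the level held without cytokines. With tunicamycin all 9 genes were lower than in naive cells, and all 9 by at least 2.5-fold, against 40.5% and 15.1% of all genes. The falls ran from 2.6-fold for *Cd74* to 11.3-fold for *H2-Eb1*. Without mouse 2 the difference of *Cd74* was -1.17 in place of -1.38 on the log2 scale, so that 8 of the 9 passed the 2.5-fold mark. In oligomycin set A, 7 of the 9 were below naive, 4 of them by at least 2.5-fold, and *Ctss* and *Ifi30* were above it. The share of all genes called was 35.5% in each direction, and 9.53% were lower by at least 2.5-fold. The 4 were *H2-Aa*, *H2-Eb1*, *Ciita* and *H2-DMa*.

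In oligomycin set B, 5 genes were below naive and *Ctss* and *Ifi30* above it, none of them by 2.5-fold, where 31.2% of all genes were called lower and 32.6% higher (7.37% and 3.58% by at least 2.5-fold). *H2-Eb1* was the lowest of them at -1.13 ± 0.09 on the log2 scale. *Cd74* was at -0.39 ± 0.09, and at -0.23 without mouse 2 (adjusted p = 0.00087, edgeR). *H2-DMa* at -0.13 ± 0.08 (adjusted p = 0.16) and *H2-DMb1* at 0.04 ± 0.07 (adjusted p = 0.67, edgeR) did not pass.

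With Sal003 the genes lay on both sides of the naive level. The 3 chains were below naive cells, *H2-Eb1* by -0.64 ± 0.09, *H2-Ab1* by -0.30 ± 0.08 and *H2-Aa* by -0.29 ± 0.09 on the log2 scale. The H2-DM pair, *Ctss* and *Ifi30* were above them, *H2-DMb1* by 0.34 ± 0.07 and *Ifi30* by 1.15 ± 0.10, although the libraries of both H2-DM genes overlapped between the groups. The shares of all genes called were 30.8% lower and 31.7% higher. *Cd74* (-0.05 ± 0.09, adjusted p = 0.65) and *Ciita* (-0.05 ± 0.07, adjusted p = 0.5, edgeR) did not pass. Without mouse 2 the differences from naive were -0.14 for *H2-Aa*, -0.17 for *H2-Ab1* and 0.45 for *H2-DMa*, and *Cd74* was above naive at 0.12 (adjusted p = 0.049, edgeR). Without mouse 4 the rise of *H2-DMa* was 0.19 and did not pass (adjusted p = 0.08, edgeR).

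Between the inhibitor groups, all 9 genes were lower in oligomycin set A than in set B, where 21.3% of all genes were called lower. *H2-DMa* alone differed by at least 2.5-fold, at -1.56 ± 0.09 on the log2 scale (adjusted p = 6e-13, edgeR), a call made for 1.48% of all genes. *Ciita* followed at -1.06 ± 0.07, and the smallest difference was that of *Cd74* at -0.42 ± 0.09.

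Tunicamycin held all 9 genes below each other inhibitor group. The background of genes called lower was 36% against Sal003, 32.1% against set A and 35.7% against set B. At least 2.5-fold differences were called for 9 of the 9 genes against Sal003 (11.3% of all genes), 7 against set A (8.6%) and 8 against set B (11.2%). Against Sal003 *Cd74* was only just past that mark, at -1.33 ± 0.09 on the log2 scale, and fell short of it without mouse 2, 4 or 5 (-1.30 to -1.28). In the comparison with set A the exceptions were *Cd74* (1.49-fold) and *Ciita* (1.89-fold), and in that with set B the exception was *Cd74* (1.99-fold). All 9 were lower in set A than with Sal003, where 26.4% of all genes were called lower. Of these *H2-DMa* (3.98-fold) and *Ciita* (3.31-fold) were lower by at least 2.5-fold, against 2.05% of all genes.

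Oligomycin set B and Sal003 were the pair of inhibitor groups that differed in the fewest of these genes. Of the 9 genes, 7 were lower in set B, none of them by 2.5-fold, against 8.77% of all genes called lower and 0.183% lower by at least 2.5-fold. The largest of the 7 differences was that of *Ciita* at -0.66 ± 0.07 on the log2 scale and the smallest that of *H2-DMb1* at -0.30 ± 0.07. *Ctss* (-0.05 ± 0.07, adjusted p = 0.71) and *Ifi30* (-0.14 ± 0.09, adjusted p = 0.36, edgeR) did not pass.

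Regulators that act on *Ciita* moved in different directions. Of 12 such genes, all tested, 3 rose and 6 fell with IL-4/IL-13, with a median log2 fold change of -0.10 against -0.02 for all genes, of which 30.1% rose and 30.4% fell. *Irf4*, a transcription factor induced by IL-4, was at 13.1, 13.1, 13.7 and 14.3 CPM in naive cells and at 303, 314, 297 and 316 CPM with the cytokines. It fell to between 1.13 and 2.04 CPM with tunicamycin, below its naive level. It stood at 88.4, 85.9, 110 and 71.6 CPM with Sal003. *Irf4* was between 24.6 and 26.4 CPM in oligomycin set A and between 65.1 and 82.2 CPM in set B. The order of its group means was that of *Ciita* except for naive cells, which came between set A and tunicamycin, and the Sal003 and set B libraries overlapped.

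*Socs1*, a feedback inhibitor of JAK kinases, rose from 3.66 ± 1.02 to 63.7 ± 6.97 CPM with the cytokines, and *Jak2* rose by 1.13 ± 0.08 on the log2 scale. *Irf8*, a factor of myeloid cells, fell by 1.01 on that scale. With tunicamycin 9 of the 12 regulators fell and 2 rose, with a median of -0.59 against 0.01 for all genes, of which 37.7% fell and 38.7% rose. *Socs1* fell to 4.16 ± 0.409 CPM, and *Irf1*, which binds an interferon-responsive promoter of *Ciita*, fell from 133 ± 7.46 to 56.8 ± 3.14 CPM. *Prdm1*, a repressor of *Ciita* in plasma cells, fell by 1.69 on the log2 scale.

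With Sal003 and in both oligomycin sets *Irf1* rose against the cytokines alone while *Ciita* fell. With Sal003, 7 of the 12 rose and 2 fell (median 0.18 against 0.00, with 25.9% of all genes higher and 24.6% lower), with *Irf1* at 230 ± 20 CPM. In set A 3 of the 12 rose and 4 fell (median -0.05 against 0.01, with 34% of all genes higher and 32.2% lower), with *Irf1* at 192 ± 5.93 CPM. In set B 5 rose and 2 fell (median 0.08 against 0.00, with 27.9% of all genes higher and 26.4% lower), with *Irf1* at 227 ± 16.1 CPM. The log2 fold change of *Ifngr1*, a receptor chain for interferon-γ, was -0.71 with Sal003, -1.28 for set A and -0.57 for set B.

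**Figure D5:**
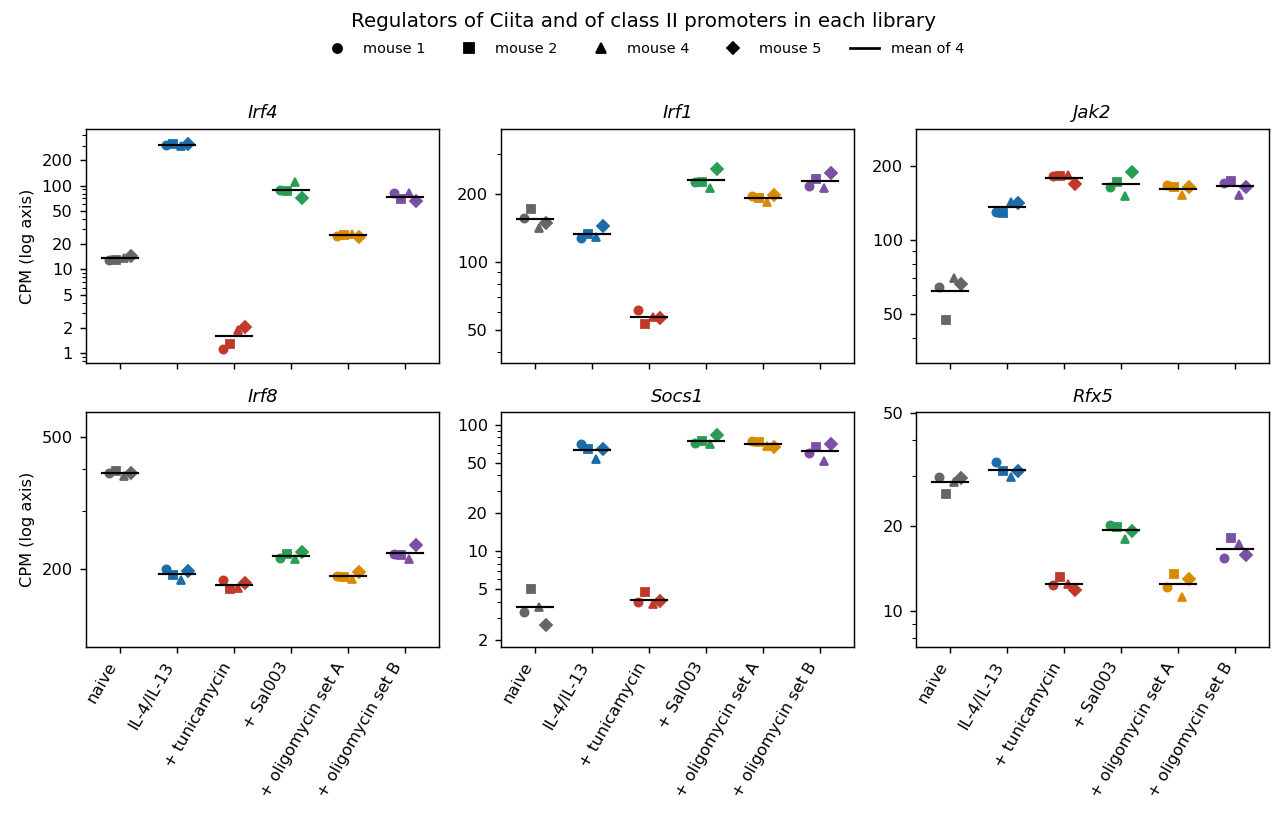
CPM on log axes of 6 regulators of *Ciita* or of class II promoters in the 6 groups, with 1 marker per mouse and a line at the mean of 4. *Irf4* and *Rfx5* were below their IL-4/IL-13 level in every inhibitor group, whereas *Irf1* was above it with Sal003 and in both oligomycin sets and below it with tunicamycin.

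Of the 7 factors that bind class II promoters, 5 rose with IL-4/IL-13 (median 0.22 against -0.02 for all genes, of which 30.1% rose), all by small amounts. *Nfya*, a subunit of NF-Y, rose by 0.38 ± 0.04 on the log2 scale. *Rfx5*, the DNA-binding subunit of RFX, was the one that fell most with the inhibitors. It was at 31.4 ± 1.55 CPM with the cytokines alone, 12.5 ± 0.521 with tunicamycin and 19.3 ± 1 with Sal003. It was at 12.4 ± 1.01 CPM for set A and 16.6 ± 1.27 for set B, so that each of the 4 falls passed (adjusted p at most 1.3e-09, edgeR). Of the 7, none was higher and 6 were lower with tunicamycin (median -0.20, and 5 lower with the mouse as a replicate block), where 37.7% of all genes were lower. With Sal003 1 was higher and 4 were lower (-0.25), where 24.6% of all genes were lower. In set A 0 were higher and 5 lower (-0.24, against 32.2% of all genes), and in set B 1 was higher and 4 were lower (-0.16, against 26.4%). *Rfxank* and *Rfxap*, the other RFX subunits, changed by at most 0.32 on the log2 scale in these comparisons.

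Of 5 further class II chain genes, only *H2-DMb2* and *H2-Ob* passed the filter on low counts. *H2-DMb2*, the second β chain of H2-DM, rose from 3.9 ± 0.79 CPM in naive cells to 7.1 ± 0.537 CPM with the cytokines (adjusted p = 2.2e-05, edgeR). It was at 1.51 ± 0.414 CPM with Sal003, 0.962 ± 0.106 in set B, 0.22 ± 0.0822 in set A and 0.156 ± 0.046 with tunicamycin, lower than with the cytokines alone in each. Of the *H2-DMb2* sequence, 39% is shared with other genes in the same sense and 30.4% in the opposite sense. The more abundant *H2-DMb1* is among these genes, and whether its reads enter the *H2-DMb2* counts was not tested. *H2-Ob*, a chain of the H2-DM inhibitor H2-O, went the other way with the cytokines, from 1.48 ± 0.533 to 0.527 ± 0.211 CPM. It too was lower in each inhibitor group than with the cytokines alone. *H2-Oa* and *H2-Eb2* stayed below 1 CPM in every library.

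Of 9 genes of endosomal processing and class II turnover, 1 rose and 5 fell with IL-4/IL-13 (median log2 fold change -0.23 against -0.02 for all genes, of which 30.1% rose and 30.4% fell). *Lgmn*, an endosomal asparaginyl endopeptidase, fell by 0.82 on the log2 scale, and the protease gene *Ctsd* fell by 0.78. With tunicamycin 3 rose and 5 fell (median -0.99 against 0.01, with 38.7% of all genes higher and 37.7% lower). On the log2 scale *Ctsb*, a cathepsin, fell by 1.94, and *Cst3*, a cathepsin inhibitor, fell by 2.18. In each of the other 3 inhibitor groups 6 of the 9 rose, with medians of 0.45 with Sal003, 0.24 for set A and 0.44 for set B, and 2, 3 and 2 fell. Of all genes 25.9%, 34% and 27.9% rose in these groups, and 24.6%, 32.2% and 26.4% fell. *Ctsl*, another cathepsin, rose by 1.17 ± 0.09, 1.49 ± 0.09 and 1.27 ± 0.09 in these groups.

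*Marchf1* encodes a ubiquitin ligase that removes class II molecules from the cell surface. It was at 107 ± 15.1 CPM in naive cells and 117 ± 7.52 with the cytokines, a difference that did not pass (adjusted p = 0.15, edgeR). It fell to 27.9 ± 2.97 CPM with tunicamycin, 68.3 ± 3.45 with Sal003, 26.8 ± 0.758 for set A and 57.9 ± 4.02 for set B. The tunicamycin and set A libraries overlapped, unlike those of the class II chains.

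Among genes with a mean of at least 50 counts, those most like the mean standardised profile of the 3 chains and *Cd74* over the 24 libraries included *Cdkn2c*, *Gpx1*, *Klf2* and *Stab2*, with Pearson correlations from 0.981 to 0.983. Those most like *Ciita* included *Ulbp1*, *E2f2*, *Klhl3* and *Nlrp10*, from 0.978 to 0.981. *Klf2*, for example, averaged 69.3 CPM in naive cells, 113 CPM with IL-4/IL-13 and 51.4 CPM with Sal003. With a prior count of 0.5 in place of 2, the 5 genes most like the chains were the same, and 4 of the 5 most like *Ciita* were. The libraries share mice and fall into 6 groups, so these values are a description.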

How the data were processed

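The deposited values used here were raw read counts per gene, without normalization. According to the methods and labels, the authors prepared mRNA libraries, trimmed the reads with Cutadapt 1.8, screened them with fastq_screen and reaper, aligned them with STAR 2.7 to GRCm39 and counted them with htseq-count 0.9.1. They tested their counts with DESeq2. Their TPM table (RSEM 1.2.31) was not used, because its header does not match its columns. Entries that name no gene held 12.7% to 15.2% of a library and did not enter the tests.

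Counts were tested with edgeR 4.0.16 in R 4.3.3 (TMM, filterByExpr, quasi-likelihood test, all 24 libraries in 1 model), with Benjamini-Hochberg adjustment over 13679 genes and a threshold of 0.05. SE are from the same fit. This code was tested on simulated data. Library depth ran from 16238727 to 26725278 gene counts (median 18999998), and the chi-square per gene between replicates was 2.19 to 35.9, so no pair was a repeat of 1 library. Libraries of the same number came from the same mouse by the labels. Their deviations from the group means correlated with a median r of 0.24, and above 0.1 in 56 of 60 pairs. Those of different mice had a median r of -0.054. Gene positions and exon lengths are from the GENCODE annotation of GRCm39, and promoters from RefSeq on GRCm38.p6.

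The members, the marker and pathway lists and the motifs were chosen with earlier results of these data known. From each pathway list up to 4 called genes per comparison were named, those with the lowest adjusted p, and *Rfxank*, *Rfxap*, *Ctsl*, *Marchf1* and *Irf1* are also given in comparisons where this rule did not take them. Some genes and a motif that these rules took are not reported here. Alternatives covered the normalization, DESeq2 1.42.0, the count filter, the samples in the fit, a replicate block, each mouse left out, a 2.5-fold threshold, and CPM on unscaled totals. The M-CSF concentration is given differently in the labels and the methods and is not stated here.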

Additional observations from a re-analysis of the deposited data

Results flagged for a closer look

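In 2 of the 54 sets of 4 libraries (9 genes in 6 groups), 1 library stood far from the others by Dixon's criterion, which chance meets in about 1 in 20 groups. *H2-Ab1* in IL-4/IL-13–treated macrophages was at 1230 CPM in mouse 1, against 1320 to 1340 CPM in the other 3 mice. *Ciita* in oligomycin set B was at 65.2 CPM in mouse 1, against 57.9 to 59.1 CPM in the others.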

How the results depend on the processing

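The log2 fold changes of the 9 genes in 15 comparisons were recomputed under 10 alternatives. Of the 1350 values, 1333 kept their direction and their side of the threshold. Of the others, 7 lost the call and 3 gained it with the same sign, and 7 changed sign. Those that changed sign were small differences from naive cells that had not passed. Among them, *Cd74* with Sal003 passed with the opposite sign without mouse 2, at 0.12 (adjusted p = 0.049, edgeR). *H2-DMb1* in oligomycin set B was at -0.030 with upper-quartile normalization and at -0.0046 with at least 10 counts in every library. When each mouse was left out in turn, this difference ran from -0.039 to 0.16, that of *H2-DMa* in set B from -0.20 to 0.0082, that of *Cd74* with Sal003 from -0.11 to 0.12 and that of *Ciita* with Sal003 from -0.13 to 0.015.

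With a call that also needs a 2.5-fold change, 3 genes were higher with IL-4/IL-13 than in naive cells. Against IL-4/IL-13, 0 were then higher and 2 lower with Sal003, and 0 were higher in set B. Against naive cells, 0 were higher and 0 lower with Sal003 and in set B, and 0 were higher and 4 lower in set A. Set A had 1 gene lower than set B and 2 lower than Sal003, and set B had 0 lower than Sal003. The count of genes higher in set A than in naive cells ran from 1 to 2 when each mouse was left out, since *Ifi30* no longer passed without mouse 1 (adjusted p = 0.076, edgeR) or mouse 4 (adjusted p = 0.071). *Cd74* in set B against Sal003 did not pass without mouse 1 (0.062) or mouse 4 (0.063), nor *H2-DMb1* without mouse 4 (0.056). *H2-Aa* with Sal003 against naive cells did not pass with only the groups compared in the fit (0.052), whereas *H2-DMa* in set B against naive cells passed with upper-quartile normalization (-0.20, 0.047). *Cd74*, close to 2.5-fold in 3 comparisons, fell under that mark with no filter on low counts against naive cells (-1.31) and Sal003 (-1.295) for tunicamycin, and with upper-quartile normalization (1.305) for IL-4/IL-13. The cause of these changes was not tested.

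With the mouse as a replicate block, *Ctss* in set A against IL-4/IL-13 passed at -0.13 (adjusted p = 0.03, edgeR), as it did with at least 10 counts in every library (-0.17, 0.044). Its adjusted p ran from 0.03 to 0.2 over the alternatives. The block changed no other call among the 9 genes. Genes at low levels, such as *H2-Ob*, rest on few counts. On unscaled library totals, 11 of the 54 group means of the 9 genes moved by more than 1 SD.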
